A study of Homo sapiens with 8 samples.

Results

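The genes for 6 human H3K9 methyltransferases, SUV39H1, SUV39H2, SETDB1, SETDB2, EHMT1 and EHMT2, were followed by every promoter window that carries one of their names. These were 9 windows of 38157 in the deposited tables, each of 2100 bases, and all 9 passed the filter on low read numbers. The cells were SiHa, an established cervical carcinoma line. They were left for 10 h on a transwell membrane, a porous barrier that motile cells can cross, and the cells on either side were then collected from the same wells. The groups were H3K9me3 of migrated cells, H3K9me3 of non-migrated cells, input of migrated cells and input of non-migrated cells, where input is sonicated chromatin taken without antibody. Each of the 4 groups held 2 libraries, 1 from each of 2 paired replicate sets. Set 1 was made with gel extraction and lost many reads as duplicates, while set 2, labelled a second biological replicate, used another kit, so kit and set cannot be told apart. The labels name no treatment and no altered gene in either fraction.

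Depth differed widely between the sets. Reads in promoter windows numbered 88028 in migrated and 164766 in non-migrated H3K9me3 libraries of set 1, and 984835 and 1137376 in set 2, while the inputs held 388191 to 1729061. Depth outside these windows is unknown. As a check of the antibody, 267 zinc finger windows of chromosome 19, known carriers of the mark, had a median log2 of 1.19 for H3K9me3 over input, and 86 cytosolic ribosomal protein windows, known to lack it, had -1.16. Promoter reads do not measure expression, so neither the cell type nor the amount of any of the enzymes was checked.

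Trimethylated lysine 9 of histone H3 (H3K9me3) marks compacted, silent chromatin and is bound by HP1 proteins, which can in turn recruit more of the writing enzymes. SUV39H1 and SUV39H2 are paralogues that write the mark at pericentromeric repeats. SETDB1 writes it at retroelements and zinc finger genes together with the corepressor TRIM28, and SETDB2 is a related enzyme linked to chromosome condensation and to the control of immune genes. EHMT2 (G9a) and EHMT1 (GLP) act as a heterodimer that places mainly the monomethyl and dimethyl forms in euchromatin. The series title links migratory cells to low SUV39H1, and the question here was how much of the mark the genes of its writers carry themselves and whether that differs between the fractions.

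The tables name a window after a gene that overlaps it, so the name alone does not place the window at the start of that gene. Of the 9 windows, 4 lie at a start of the gene they are named after. They are the window of SUV39H1 (hg19 chrX:48551945-48554045, plus strand), that of SUV39H2 (chr10:14918819-14920919, plus strand), the first window of SETDB1 (chr1:150896739-150898839, plus strand) and the only minus-strand window of EHMT2 (chr6:31865364-31867464), a gene read from the minus strand in RefSeq. A plus-strand window of EHMT2 (chr6:31863562-31865662) shares 298 bases, and hence reads, with that window. Their start positions are 98 bases apart and point away from each other, and RefSeq lists the complement gene C2 as the next gene on that side. The remaining 4 windows lie inside or at the far end of the gene. The second window of SETDB1 (chr1:150935736-150937836) starts 38997 bases downstream of the first. Another plus-strand window of EHMT2 (chr6:31849538-31851638) starts 13926 bases into the gene, on the strand opposite to it.

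The single windows named after EHMT1 and SETDB2 are not at the start of these genes. The EHMT1 window (chr9:140730871-140732971) lies 219427 bases downstream of a plus-strand window (chr9:140511444-140513544) that carries the name C9orf37. This is an older symbol of the antisense RNA ARRDC1-AS1, which in RefSeq is the neighbour on the 5' side of EHMT1. The SETDB2 window (chr13:50067746-50069846) lies 51317 bases downstream of a plus-strand window (chr13:50016429-50018529) with the name CAB39L, the neighbour on the 5' side of SETDB2. These windows were taken as the starts of EHMT1 and SETDB2. They were chosen after their values were seen, are not among the 9, and are given under the names in the tables.

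Promoter sequences of 5 of the genes are shown because they span the range of CpG content, to which the read values are compared further on. They are taken from RefSeq, where all 6 genes were matched by symbol, and run 5' to 3' on the strand of the gene from 250 bases before to 50 bases after its start. Their positions are in GRCh38.p14 and not in hg19, in which the read values are given. Capitals mark the GC box GGGCGG and the CCAAT motif, each searched on both strands (CCGCCC and ATTGG in reverse), and the capitals are matches of letters only. RefSeq gives SUV39H1 a pair of starts that lie 1180 bases apart, and which of them the hg19 window belongs to was not determined. A window runs from 2000 bases before a start to 100 bases after it. If the window belongs to the first start, the second lies outside it and was not measured.
SUV39H1 entry 1 (chrX:48695304-48695603, plus strand): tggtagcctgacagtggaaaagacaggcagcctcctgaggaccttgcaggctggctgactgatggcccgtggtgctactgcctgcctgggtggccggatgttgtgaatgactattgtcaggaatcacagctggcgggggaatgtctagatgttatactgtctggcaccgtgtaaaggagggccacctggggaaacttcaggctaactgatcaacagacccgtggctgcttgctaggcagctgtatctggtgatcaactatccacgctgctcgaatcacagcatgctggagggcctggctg
SUV39H1 entry 2 (chrX:48696484-48696783, plus strand): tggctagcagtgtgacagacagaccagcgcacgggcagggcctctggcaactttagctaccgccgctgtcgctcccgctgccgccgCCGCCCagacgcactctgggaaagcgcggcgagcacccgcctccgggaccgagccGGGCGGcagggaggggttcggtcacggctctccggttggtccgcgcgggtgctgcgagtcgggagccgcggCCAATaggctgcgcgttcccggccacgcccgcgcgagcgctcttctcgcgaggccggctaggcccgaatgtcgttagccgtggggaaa
SUV39H2 (chr10:14878616-14878915, plus strand): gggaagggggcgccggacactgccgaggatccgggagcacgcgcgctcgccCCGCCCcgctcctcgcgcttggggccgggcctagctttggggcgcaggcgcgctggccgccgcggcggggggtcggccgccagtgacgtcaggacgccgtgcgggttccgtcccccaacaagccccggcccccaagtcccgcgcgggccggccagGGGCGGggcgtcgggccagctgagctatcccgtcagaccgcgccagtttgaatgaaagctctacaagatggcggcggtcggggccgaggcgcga
SETDB1 (chr1:150926013-150926312, plus strand): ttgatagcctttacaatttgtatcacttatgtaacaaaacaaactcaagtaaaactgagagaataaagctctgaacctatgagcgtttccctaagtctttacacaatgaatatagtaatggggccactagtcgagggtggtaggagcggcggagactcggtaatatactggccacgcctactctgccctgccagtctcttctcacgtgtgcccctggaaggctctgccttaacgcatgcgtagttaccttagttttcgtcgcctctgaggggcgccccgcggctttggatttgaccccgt
EHMT2 (chr6:31897649-31897948, minus strand): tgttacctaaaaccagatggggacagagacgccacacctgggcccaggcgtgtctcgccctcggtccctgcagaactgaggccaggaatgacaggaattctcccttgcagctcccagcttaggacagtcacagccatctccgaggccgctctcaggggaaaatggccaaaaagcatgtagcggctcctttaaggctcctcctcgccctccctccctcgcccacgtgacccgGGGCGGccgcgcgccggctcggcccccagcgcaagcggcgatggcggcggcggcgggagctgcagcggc
EHMT1 (chr9:137618755-137619054, plus strand): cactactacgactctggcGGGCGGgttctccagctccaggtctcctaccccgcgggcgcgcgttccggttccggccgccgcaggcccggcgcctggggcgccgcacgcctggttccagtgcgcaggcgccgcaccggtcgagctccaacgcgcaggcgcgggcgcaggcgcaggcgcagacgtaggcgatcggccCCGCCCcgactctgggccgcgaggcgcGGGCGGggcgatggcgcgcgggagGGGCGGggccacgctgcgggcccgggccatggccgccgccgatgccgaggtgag

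The CpG content of the promoters ran in steps from poor to rich. SUV39H1 entry 1 held 7 CpG dinucleotides and neither motif, while its entry 2 held 42, with 2 GC boxes and 1 CCAAT. The promoter of SUV39H2 held 44 CpG and 2 GC boxes, that of EHMT1 held 51 and 4, and that of EHMT2 held 25 and 1. The SETDB1 promoter held 15 CpG and neither motif, and a second RefSeq entry of the gene held 22. SETDB2, whose promoter is not printed, had 29 CpG, 1 GC box and 2 CCAAT. Of all 35114 RefSeq promoters of this length, 45.0% held a GC box and 34.6% a CCAAT motif on either strand. None of the 8 entries held TATAAA on either strand, which 11.5% of all promoters did.

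H3K9me3 over input was low at the starts of SUV39H2, EHMT1 and EHMT2, and no start window of the 6 genes was called enriched. Over both fractions, 1 of the 9 windows was enriched and 4 lay below the centre set by trimmed means of M values (TMM). This scaling fixes where 0 lies, and that 0 is above the median of all tested windows (-0.35). Over all 36440 tested windows the enriched share was 15.8% and the share below the centre 35.2%, at an adjusted p of 0.05 in limma. The members' counts were therefore close to the background. The lower ones include the start and divergent windows of EHMT2, which share reads and so are not separate results. The split of all windows depended on the scaling: it was 5771 enriched against 12821 lower under TMM, and 340 against 19685 when the deposited constants served as library sizes. The median log2 of the 9 windows was -0.75, beside -0.35 over all tested windows. Over the windows at the starts of the 6 genes it was -1.55, but those of EHMT1 and SETDB2 were chosen after their values were seen. In migrated cells taken alone, 1 window was enriched and 4 lay lower (12.9% and 28.3% of all windows), and in non-migrated cells 1 and 3 (8.41% and 23.6%).

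From low to high, the order of the averaged log2 values began with the divergent window of EHMT2 (-2.71), SUV39H2 (-2.49) and the start of EHMT2 (-2.48). Next came the downstream windows of SETDB2 (-1.42) and SETDB1 (-0.75), SUV39H1 (-0.18) and the start of SETDB1 (-0.14). The internal window of EHMT2 (0.38) and the downstream window of EHMT1 (1.29) were highest. The 95% intervals of all 8 pairs of neighbours in this order overlapped. The ends of the order did not: the interval of EHMT1 (0.69 to 1.88) lay above those of SUV39H2 (-3.39 to -1.59) and of the start of EHMT2 (-3.63 to -1.33).

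**Figure D1:**
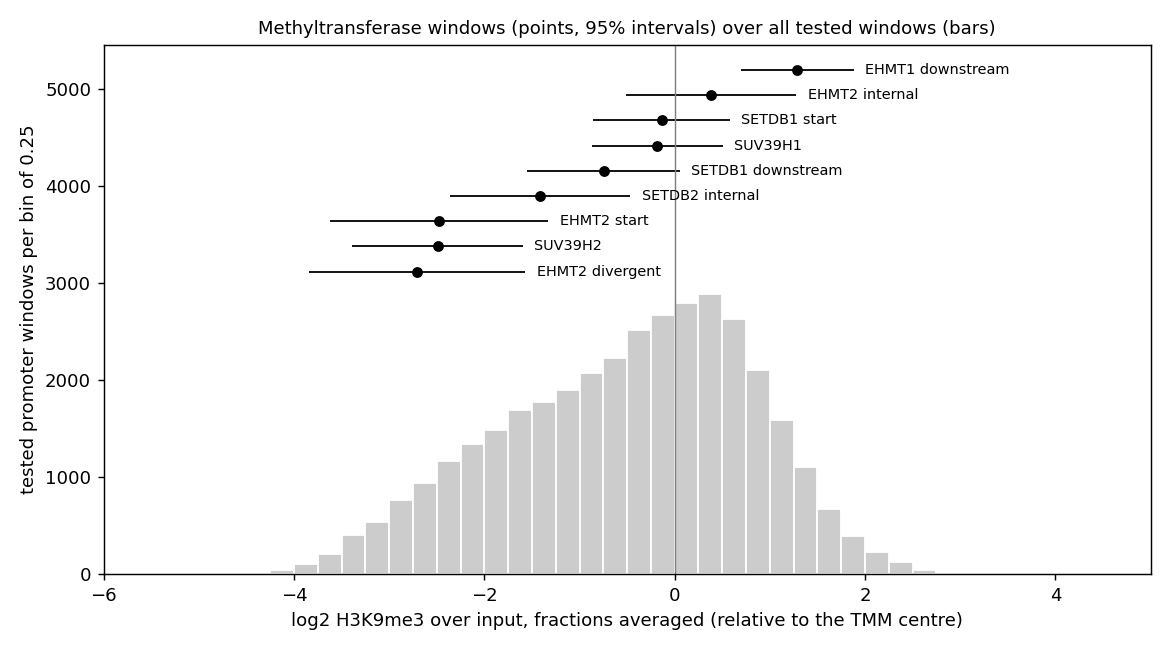
Averaged log2 H3K9me3 over input of the 9 windows (points with 95% intervals from limma) above the distribution of all 36440 tested windows (bars, windows per bin). The divergent and start windows of EHMT2 and that of SUV39H2 sit in the low tail, and only the downstream window of EHMT1 lies wholly above 0.

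The SUV39 pair lay at different levels, and the 95% intervals of SUV39H2 (-3.39 to -1.59) and SUV39H1 (-0.87 to 0.51) did not overlap. The window of SUV39H2 held 0 and 3 H3K9me3 reads in migrated cells (sets 1 and 2) and 1 and 6 in non-migrated cells, while its inputs held 16 and 59 reads in migrated cells and 13 and 49 in non-migrated cells. After scaling, every H3K9me3 library was below its input, with log2 values of -2.32 and -3.33 in migrated and -2.04 and -2.45 in non-migrated cells. Summed over the sets and scaled, SUV39H2 carried 0.0876 of input in migrated cells (95% counting interval 0.0177 to 0.266) and 0.169 in non-migrated cells (0.0654 to 0.370). Such intervals cover counting error only. The depth of H3K9me3 relative to input differs between the sets, so summed ratios are approximate and can lie outside the range of their sets. In migrated cells the sets gave 0 and 0.0860. In the fit SUV39H2 lay at 0.178 of input (log2 -2.49 ± 0.44, adjusted p = 2.26e-05 by limma), the percentile 8.39 of all tested windows. The call held under every alternative run, while the size ranged from log2 -3.46 under the deposited scaling to -1.64 with 2 added to each read number.

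SUV39H1, the gene of the series title, lay near the centre. Its window held 1 and 52 H3K9me3 reads in migrated cells and 5 and 58 in non-migrated cells, against 24 and 64 input reads in migrated cells and 18 and 60 in non-migrated cells. In set 2 the ratio to input was 1.37 in migrated cells (95% counting interval 0.935 to 2.01) and 1.34 in non-migrated cells (0.920 to 1.96). In set 1 it was 0.276 (0.00671 to 1.69) and 0.610 (0.177 to 1.70). The sets thus lie on different sides of 1, while the fractions within each set lie on the same side. Summed over the sets the ratio was 1.32 in migrated cells (0.920 to 1.88) and 1.21 in non-migrated cells (0.856 to 1.71), mostly from reads of set 2. The fit, which gives both sets equal weight, placed SUV39H1 at 0.882 of input (log2 -0.18 ± 0.34, adjusted p = 0.678 by limma, percentile 54.6). The sign of the averaged log2 depended on the processing: it was 0.30 where the deeper set weighed more. Under the deposited scaling it was -1.20 and was called lower (adjusted p = 0.0299 by limma). That scaling called 19685 of 36440 tested windows lower, and SUV39H1 stayed above the median of all windows under it.

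Of the EHMT pair, EHMT2 had hardly any H3K9me3 reads at its start. That window held 1 and 0 H3K9me3 reads in migrated cells and 0 and 3 in non-migrated cells, against 11 and 30 input reads in migrated and 3 and 32 in non-migrated cells. The summed ratio was 0.0534 in migrated cells (0.00132 to 0.315) and 0.129 in non-migrated cells (0.0253 to 0.408). The fit gave a log2 of -2.48 ± 0.57 (adjusted p = 0.000485 by limma), a size that depends on the 0.5 added to each read number. By set the log2 was -0.21 and -5.17 in migrated cells and -1.67 and -2.74 in non-migrated cells, so set 1 of migrated cells, with 1 read, lay near input. This call was lost without the non-migrated H3K9me3 library of set 1 (log2 -1.09, adjusted p = 0.0741 by limma), and the value was also nearer 0 without the migrated H3K9me3 library of set 2 (-1.26).

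The divergent window of EHMT2, which shares bases with the start window, had 0 H3K9me3 reads in both sets of migrated cells and 0 and 3 in non-migrated cells, against 12 and 22 input reads in migrated and 2 and 33 in non-migrated cells. In migrated cells a floor of 3 reads over both sets would be 0.193 of input, and the 95% upper limit from counting was 0.251. In non-migrated cells the ratio was 0.129 (0.0253 to 0.408). It also passed the test (adjusted p = 0.000158 by limma), with log2 -1.74 in place of -2.71 when the non-migrated H3K9me3 library of set 1 was left out.

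The internal window of EHMT2, on the opposite strand, was a different case. It held 1 and 19 H3K9me3 reads in migrated cells and 5 and 25 in non-migrated cells, against 13 and 42 input reads in migrated and 1 and 43 in non-migrated cells. In set 2 the ratio was 0.765 in migrated cells and 0.808 in non-migrated cells, with intervals that include 1. In set 1 the non-migrated value of log2 3.01 rested on 1 input read against 5 H3K9me3 reads. The averaged log2 of 0.38 ± 0.44 was not called (adjusted p = 0.484 by limma). It turned to -0.14 where the deeper set weighed more, and it was called only without the migrated H3K9me3 library of set 1 (0.90, adjusted p = 0.0483 by limma). A value under the name EHMT2 thus ranged from depletion at the gene's start to about the level of input inside it.

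EHMT1 showed the widest contrast between windows. The downstream window named after it held 7 and 142 H3K9me3 reads in migrated cells and 9 and 143 in non-migrated cells, against 17 and 94 input reads in migrated and 10 and 84 in non-migrated cells. The ratio to input was above 1 in both fractions of both sets. In set 2 it was 2.56 in migrated cells (1.96 to 3.35) and 2.37 in non-migrated cells (1.80 to 3.14). In set 1 it was 2.73 (0.956 to 6.92) and 1.98 (0.710 to 5.41), with intervals that include 1. The fit gave 2.44-fold (log2 1.29 ± 0.29, adjusted p = 0.000451 by limma, percentile 93.5), the only enriched window of the 9. It was not called under the deposited scaling (log2 0.33, adjusted p = 0.601 by limma), which lowered the median of all windows to -1.30.

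At the start of EHMT1, under the name C9orf37, H3K9me3 was instead among the lowest of all windows. There were 0 and 2 H3K9me3 reads in migrated cells and 1 and 8 in non-migrated cells, against 34 and 62 input reads in migrated and 14 and 75 in non-migrated cells. The log2 was -3.04 ± 0.43 (adjusted p = 1.21e-06 by limma), at the percentile 3.31. The intervals of the start (-3.92 to -2.16) and of the downstream window (0.69 to 1.88) were far apart.

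The SETDB genes lay between these cases. The start of SETDB1 held 4 and 16 H3K9me3 reads in migrated cells and 4 and 20 in non-migrated cells, against 18 and 40 input reads in migrated and 9 and 44 in non-migrated cells. In set 2 the ratio was 0.677 in migrated cells (0.354 to 1.24) and 0.632 in non-migrated cells (0.353 to 1.10), and in set 1 it was 1.47 and 0.976. The log2 of -0.14 ± 0.35 was not called (adjusted p = 0.767 by limma), and its sign turned with some settings. The downstream window of SETDB1, which holds 0 and 17 H3K9me3 reads in migrated cells and 5 and 29 in non-migrated cells, was not called either (-0.75 ± 0.39, adjusted p = 0.112 by limma). It was called lower in migrated cells alone (log2 -1.65 ± 0.55, adjusted p = 0.0170 by limma) and not in non-migrated cells (0.16 ± 0.48, adjusted p = 0.833 by limma), and the difference between them is tested with the comparison of the fractions. The averaged value passed as lower under the deposited scaling (-1.83), with set 2 of migrated H3K9me3 left out (-1.34) and with set 1 of non-migrated H3K9me3 left out (-1.16). It was 0.032 with set 1 of migrated H3K9me3 left out.

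The window named SETDB2 held 1 and 2 H3K9me3 reads in migrated cells and 1 and 6 in non-migrated cells, against 14 and 22 input reads in migrated and 9 and 21 in non-migrated cells. It lay at 0.374 of input (log2 -1.42 ± 0.47, adjusted p = 0.0115 by limma), and all 4 H3K9me3 libraries were below their inputs after scaling. The call was lost when any of 6 of the 8 libraries was left out, with adjusted p of 0.0584 to 0.175 (limma) and log2 values of -1.48 to -0.79, the value nearest 0 being that without the non-migrated H3K9me3 library of set 1; it was kept only without the migrated H3K9me3 library of set 1 or the non-migrated one of set 2. At the start of SETDB2, under the name CAB39L, there were 1 and 13 H3K9me3 reads in migrated cells and 3 and 12 in non-migrated cells, against 10 and 45 input reads in migrated and 8 and 44 in non-migrated cells (log2 -0.62 ± 0.42, adjusted p = 0.218 by limma). This start passed as lower where the deeper set weighed more (-0.99, adjusted p = 0.00852 by limma).

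**Figure D2:**
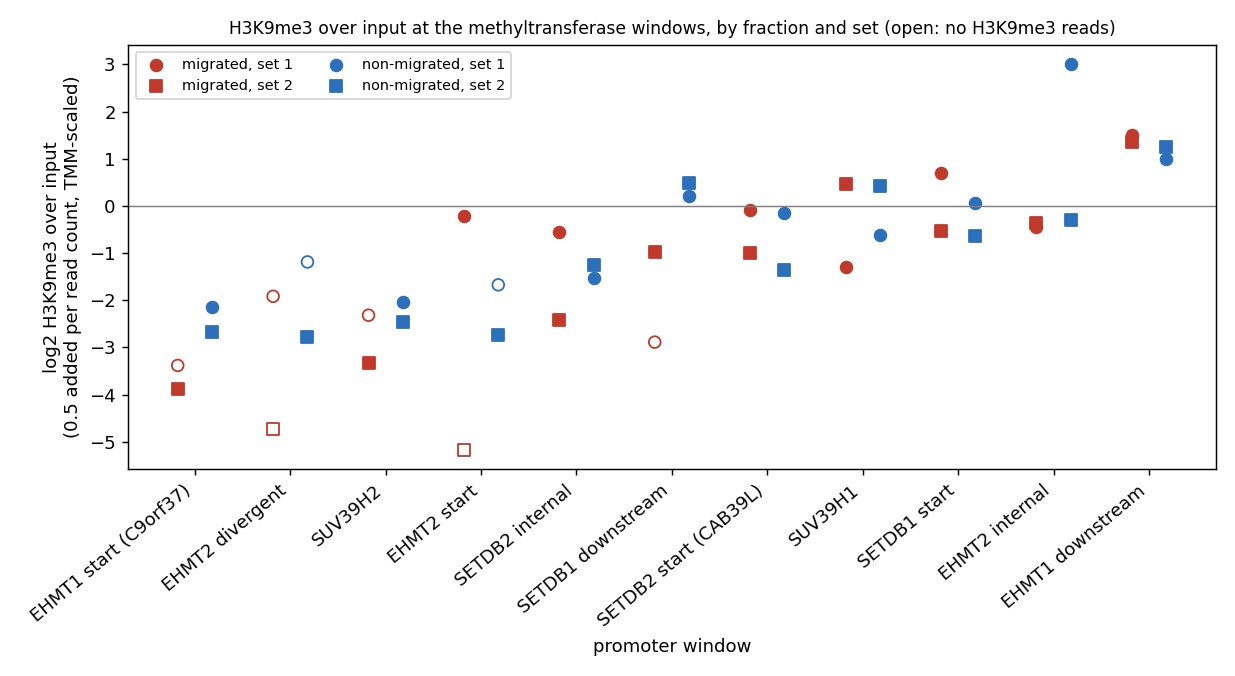
Log2 H3K9me3 over input in each fraction and set, for the 9 windows and the windows at the starts of EHMT1 and SETDB2, ordered by the averaged value (red, migrated; blue, non-migrated; circles, set 1; squares, set 2; open symbols, no H3K9me3 reads). The downstream window of EHMT1 is above 0 in all 4 pairs of libraries, and SUV39H2 is below 0 in all 4.

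The levels of windows of other genes near the 6 genes were also compared. Within 100000 bases of the SUV39H1 window, 2 of 6 tested windows of other genes were enriched and 0 were lower, with a median log2 of 0.61, and on chromosome X as a whole 34.2% of tested windows were enriched and 7.23% lower. SUV39H1 thus lay below the median of its neighbours and of its chromosome (0.45), although its interval (-0.87 to 0.51) includes the value of the chromosome. Around SUV39H2 all 5 neighbouring windows were lower (median -2.53). Around the downstream window of SETDB1, the one of its windows with more reads, 11 of 12 were lower (median -1.91).

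Around the start of EHMT2, in the class III region of the major histocompatibility complex, 12 of 13 tested neighbours were lower and 1 was enriched. Those within 5000 bases of an EHMT2 window were named C2 (log2 -2.10 ± 0.47), 2205 bases from the start window, and SLC44A4 (-1.76 ± 0.40), 715 bases from the internal window of EHMT2. The internal window, at 0.38, was higher than both. Around the downstream window of EHMT1 there were only 2 tested neighbours, at log2 0.23 and 1.80, of which 1 was enriched, and near the SETDB2 window 2 of 4 were lower. The start window of SETDB2 is paired with a minus-strand window that is also named CAB39L. The windows of this pair overlap and so share reads, but the minus-strand one had -2.46 ± 0.52 and was called lower.

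**Figure D3:**
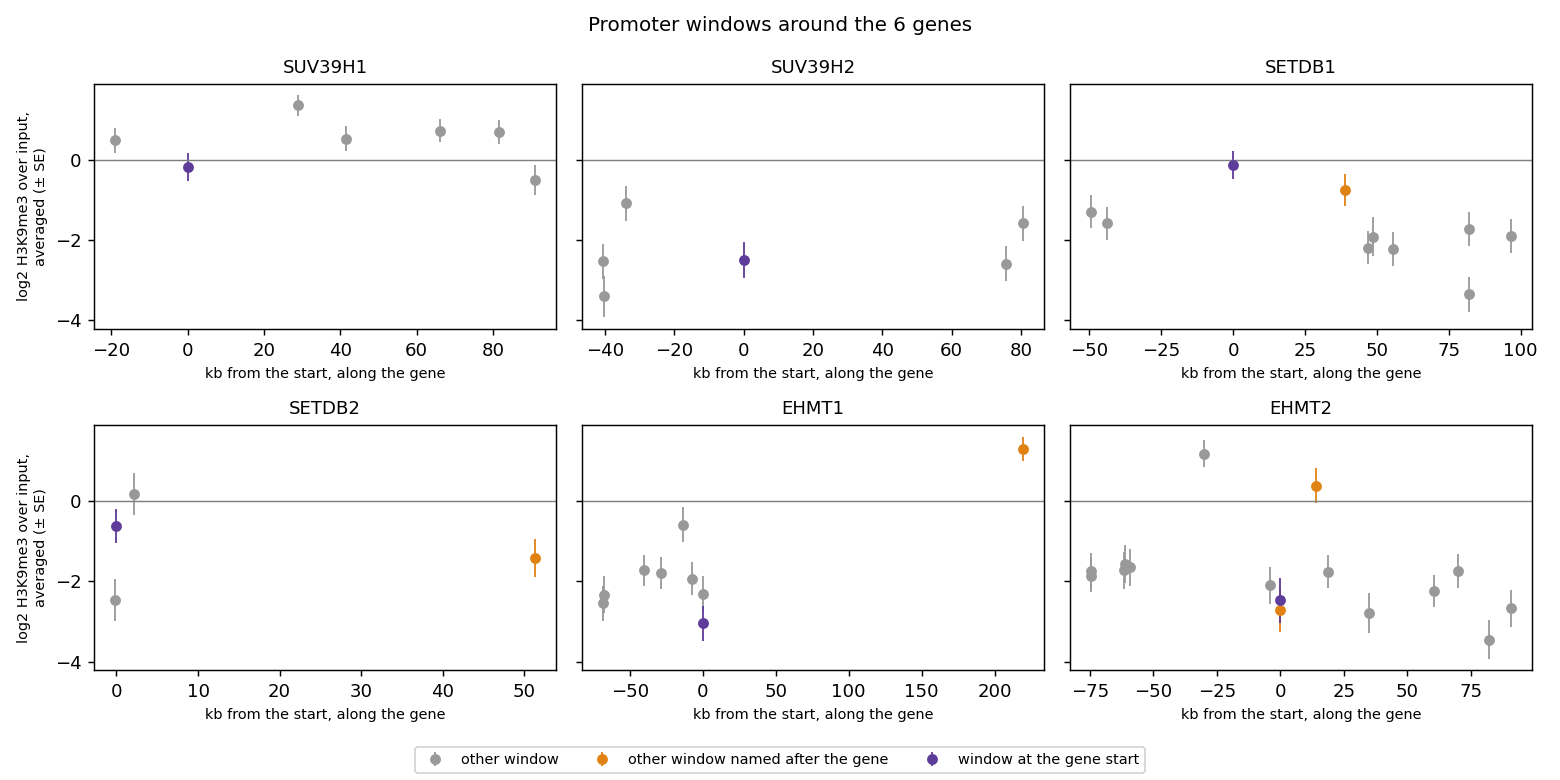
Averaged log2 H3K9me3 over input (± SE from limma) of all tested windows around each gene, by distance in kb along the gene from its start window (purple, start window; orange, other windows named after the gene; grey, other windows). EHMT1 has its start window at -3.04 and its named window at 1.29, 219.4 kb downstream.

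Genes with CpG-rich promoters had lower H3K9me3 over input. Among other genes with 1 tested window and 1 RefSeq promoter on the same strand, the median log2 was 0.09 for 1277 genes with 0 to 5 CpG dinucleotides and -1.14 for 1341 genes with 31 or more. Of the first group 16.8% were enriched and 13.4% lower, and of the last 8.65% and 57.1%. SUV39H2 (44 CpG) and the start of EHMT1 (51 CpG) lay below the lower quartile of the last group, -1.95. The interval of the EHMT1 start (-3.92 to -2.16) excluded that quartile, while that of SUV39H2 (-3.39 to -1.59) included it. EHMT2 (25 CpG), at -2.48, lay below the lower quartile of genes with 21 to 30 (-1.93), but its interval (-3.63 to -1.33) included that value. Leaving out 1 library gave values of -3.69 to -1.09 for the start of EHMT2, so its place against this quartile was not stable. SETDB1 (15 or 22 CpG) lay above the median for either count (-0.53 and -1.03). The start window of SETDB2 (29 CpG, log2 -0.62) also lay above the median of its group. The overlapping minus-strand window named CAB39L, at -2.46, lay below the lower quartile of that group (-1.93). The place of SETDB2 thus depends on which of these windows is used. SUV39H1 lay near the median of genes with 6 to 10 CpG (-0.17) if the window belongs to its first RefSeq start. In that case its CpG-rich second start lies outside the window and was not measured. If the window belongs to the second start, SUV39H1 (-0.18) lay just above the upper quartile of the richest genes (-0.22). Its interval (-0.87 to 0.51) included that quartile, and leaving out 1 library gave -0.55 to 0.32. These placements are descriptions, since the genes share the same libraries.

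**Figure D4:**
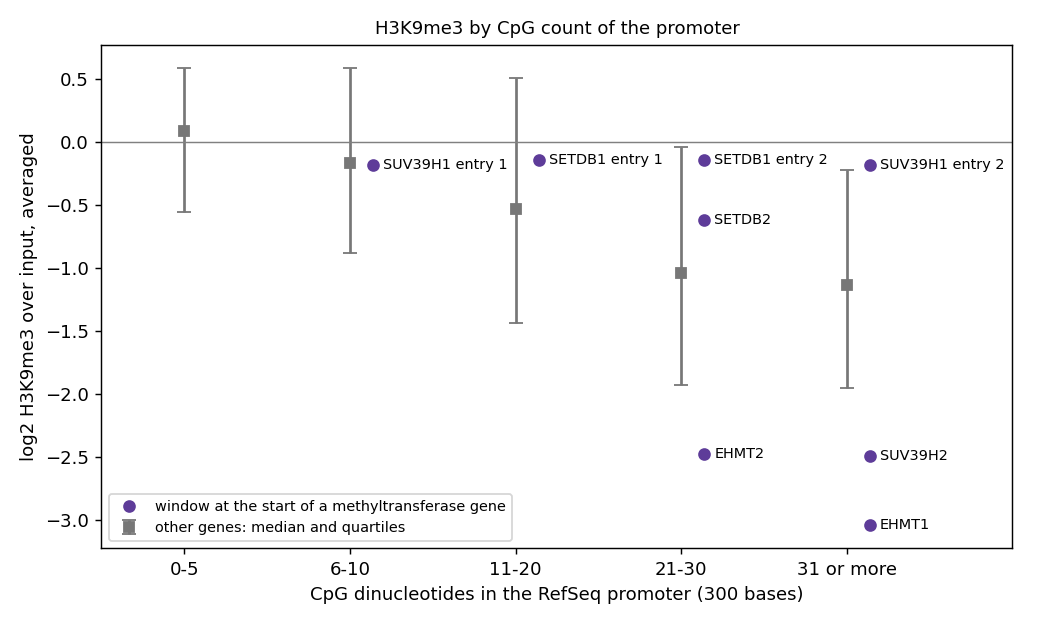
Averaged log2 H3K9me3 over input by the number of CpG dinucleotides in the 300-base RefSeq promoter: grey squares and bars are the median and quartiles of other genes, purple points the start windows of the 6 genes. The points of SUV39H2, EHMT1 and EHMT2 lie below the lower quartile of genes with similar CpG counts, but of these only the interval of EHMT1 excludes that quartile. SUV39H1 and SETDB1, each drawn for both of their RefSeq entries, lie higher.

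Between migrated and non-migrated cells, no window of the 6 genes was called different in input-corrected H3K9me3. At an adjusted p of 0.05, limma called 0 of 36440 windows in either direction (0%), as did the quasi-Poisson model; 608 windows were higher and 675 lower in migrated cells at an unadjusted p under 0.05. The adjusted p of all 9 windows was 0.999. Their changes ran from log2 -1.81 to 0.26, with a median of -0.31, beside a median of -0.01 over all tested windows.

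For SUV39H1 the change was log2 0.05 ± 0.47, with a 95% interval of -0.90 to 1.00, that is from 0.537-fold to 2.00-fold. Its level was log2 -0.16 ± 0.42 in migrated cells and -0.21 ± 0.40 in non-migrated cells. The sign of the change was not stable, with -1.08 under the deposited scaling and -0.33 without precision weights. The deposited scaling lowered the change of every member window, that of the downstream window of EHMT1 from 0.16 to -0.53, so this shift is not particular to SUV39H1. The narrowest interval was that of the downstream window of EHMT1 (change 0.16, -0.57 to 0.88), whose level was 1.36 ± 0.33 in migrated and 1.21 ± 0.35 in non-migrated cells. For SUV39H2 the change was -0.78 (-2.49 to 0.94) and for the start of EHMT2 -0.19 (-2.38 to 2.01). It was 0.26 (-1.01 to 1.53) for the start of SETDB1 and -0.31 (-2.16 to 1.55) for the downstream window of SETDB2. In the windows other than that of EHMT1, the H3K9me3 libraries of set 1 held 0 to 5 reads each.

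The downstream window of SETDB1 was the only member with an unadjusted p under 0.05 (0.0117). Its H3K9me3 reads numbered 0 and 17 in migrated cells and 5 and 29 in non-migrated cells, while its input reads ran the other way, at 24 and 58 in migrated cells and 10 and 29 in non-migrated cells. The log2 of H3K9me3 over input was -2.89 and -0.98 in migrated cells and 0.20 and 0.48 in non-migrated cells. These values of the fractions did not overlap, but the -2.89 rests on the 0.5 added to 0 reads. The 95% counting intervals of the ratios overlapped within set 1 (0 to 1.10 in migrated, 0.294 to 3.52 in non-migrated cells). They also overlapped within set 2 (0.271 to 0.864 against 0.802 to 2.41). Summed over the sets they did not (0.252 to 0.772 against 0.801 to 2.13). The change of -1.81 ± 0.68 (0.285-fold, 95% interval 0.109 to 0.743) did not pass adjustment over all windows (adjusted p = 0.999 by limma). It passed without the migrated H3K9me3 library of set 2 (-3.54, adjusted p = 0.0105 by limma) and without the non-migrated one of set 2 (-3.48, adjusted p = 0.0195 by limma), fits in which 1112 and 742 windows in all were called lower. Because the model holds the product of set and ChIP, both fits take the H3K9me3 side of the change from set 1 alone. That side is 0 reads in migrated against 5 in non-migrated cells, so the fits are not separate results. In both the size rests on the 0.5 added to 0 reads, and the spread is assumed to be like that of the other groups. The change was nearer 0 without the H3K9me3 library of set 1 from migrated cells (-1.22) or from non-migrated cells (-1.21). Those fits likewise take the H3K9me3 side of the change from set 2 alone. It was -1.28 without the set 2 input of migrated cells and -1.25 without that of non-migrated cells.

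**Figure D5:**
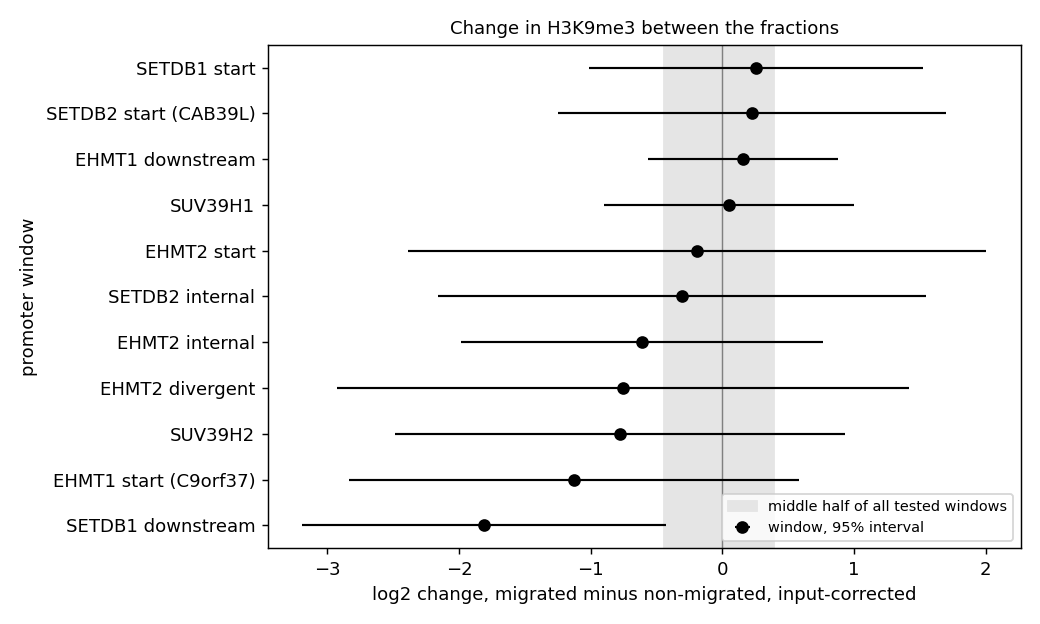
Input-corrected log2 change of H3K9me3, migrated minus non-migrated, with 95% intervals from limma, for the 9 windows and the windows at the starts of EHMT1 and SETDB2; the grey band holds the middle part of all tested windows, from the lower to the upper quartile (-0.45 to 0.39). The interval of every window but the downstream one of SETDB1 includes 0, and no window passed after adjustment.

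Other genes of the H3K9 pathway, readers, cofactors and demethylases among them, were called about as often as all windows. Taking the window with the most reads of each, 3 of 24 were enriched and 8 lower over both fractions, with a median log2 of -0.05, beside shares of 15.8% and 35.2% and a median of -0.35 over all tested windows. The enriched ones of smallest p were PHF2, a demethylase (2.32-fold, adjusted p = 0.00219 by limma), and PRDM2, a zinc finger protein of the methyltransferase family (2.01-fold, adjusted p = 0.00327 by limma). KDM4B, a demethylase of H3K9me3, lay at 0.102 of input and TRIM28, the corepressor that recruits SETDB1, at 0.222. Of lysine methyltransferases that act on other residues, 3 of 19 were enriched and 11 lower, with a median of -1.12, beside the same shares over all windows. Between the fractions 0 windows of either list were called in either direction. PRDM9, a methyltransferase of meiotic cells, was enriched 3.78-fold, with 11 and 271 H3K9me3 reads in migrated and 29 and 243 in non-migrated cells, and a window of WHSC1, a writer at H3K36, 2.73-fold. SUV420H2, a writer on histone H4, lay at 0.0889 and SETD2, another writer at H3K36, at 0.112. Whether these windows lie at the starts of their genes was not checked.

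The windows most like each gene in their 4 log2 ratios were found among 19383 windows with a mean of at least 20 reads, by Euclidean distance. For SUV39H1 they were windows named U6 on chromosome 5 (distance 0.177) and MX2 on chromosome 21 (0.230), for SUV39H2 those of CSAD (0.302) and RASSF1 (0.398), and for the start of EHMT2 those of PSME1 (0.633) and MTF1 (0.856). For the downstream window of EHMT1 they were RP11-518D3.1 (0.103) and DSC3 (0.131), and for that of SETDB2 WNK2 (0.194) and CAMK2G (0.261). For the downstream window of SETDB1 they were RP11-343J18.2 (0.363) and EI24 (0.456). The median distance over all searched windows ran from 2.76 for SUV39H1 to 6.33 for the start of EHMT2. The distances rest on 4 ratios each and are given as a description.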

How the data were processed

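H3K9me3 and input libraries of migrated and non-migrated SiHa cells were analysed, 8 in all. The deposited values were log2, per the file headers. They proved to be the log2 of whole reads plus a constant for each library, in which 0 reads stand as log2 of 0.9; 100% of values came out whole within 0.01, and these reads were used. What the constants are based on and which counting program was used are not given in the sources used here. Bowtie2 2.2.9, SAMtools 1.3, FastQC 0.11.5 and the build hg19 are listed in the submitters' processing notes, and the labels' protocols say that duplicates were removed in set 1.

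A window was tested if 2 or more libraries exceeded the level that 10 reads have at the median library size and its reads totalled 15 or more. Libraries were scaled by TMM (30% of ratios and 5% of levels trimmed). limma 3.58.1 in R 4.3.3 was run on log2 of reads plus 0.5, scaled to library size; each value was weighted by the trend of its variance with its level (precision weights). The model held the set, ChIP, their product, fraction, and fraction by ChIP, with 2 residual and 33.1 prior degrees of freedom. Each comparison was read as a coefficient of its own coding of the model, because limma's contrasts are approximate under precision weights. P-values are two-sided, adjusted by Benjamini-Hochberg over all 36440 tested windows. The set entered as a block, since the labels give each set a library kit of its own; departures of libraries with the same number from their group means correlated at 0.151 for H3K9me3 and 0.456 for input across windows. For migrated H3K9me3 of set 1, title and description disagree on the replicate number; the title was used. Counting intervals are exact (Clopper-Pearson, 95%) for the split of H3K9me3 and input reads. Over both sets, reads and library sizes were each summed first, so the summed ratios and their intervals are approximate. The fit was run on simulated reads with known folds. These had a common spread and no effect of the set, so that check does not cover the differences between the sets.

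All windows of the 6 genes were named; list genes were named by the smallest adjusted p, up to 2 per direction, adjoining neighbours if called within 5000 bases, and the 2 nearest windows by likeness. Members and lists were chosen with earlier results of these data known. Alternatives were median-of-ratios factors, the deposited constants as scaling, no low-read filter, 2 added to each read number, no precision weights, no replicate block, a quasi-Poisson model, each library left out and, chosen after seeing the data, an additive block in which the deeper set weighs more.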

Additional observations from a re-analysis of the deposited data

How the results depend on the processing

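Depth is 1 limit: set 1 gave 0 to 9 H3K9me3 reads per member window, and ratios there rest on the number added to each count. H3K9me3 over input is relative, and the median of all windows, -0.35, became -1.30 under the deposited constants and -0.03 with 2 added to each read number. SUV39H2 kept its call as lower under all 16 alternatives, as did the start of EHMT1 (C9orf37). The downstream window of EHMT1 kept its call as enriched under 15, the exception being the deposited constants.

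The count of enriched member windows (1 averaged, 1 in migrated and 1 in non-migrated cells) became 0 in all 3 under the deposited constants. With no replicate block it became 0 in non-migrated cells, and the lower ones there went from 3 to 1, as without precision weights (1). Leaving out 1 library gave 1 to 2 enriched and 2 to 4 lower members averaged, 0 to 1 and 2 to 5 in migrated cells, 0 to 2 and 0 to 4 in non-migrated cells, and 0 to 1 members lower for the change. The averaged counts reached 2 enriched when the set 1 library of migrated H3K9me3 was left out and 2 lower without the non-migrated input of set 2.

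Over all windows, the averaged counts of 5771 higher and 12821 lower became 340 and 19685 under the deposited constants and 8899 higher with 2 added. In migrated cells 4691 and 10296 became 35 and 19911 under the deposited constants and 7052 higher with 2 added; in non-migrated cells 3064 higher became 142 under the deposited constants, 4636 with no low-read filter, 4909 with 2 added and 5552 with the additive block, and 8605 lower became 5471 without precision weights. Leaving out 1 library gave 3201 to 9272 higher and 7844 to 12568 lower averaged, 2107 to 6647 and 4127 to 12521 in migrated, 566 to 7186 and 1877 to 10724 in non-migrated cells, and 0 to 743 and 0 to 1112 for the change.

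Some values not called in the main setting changed sign. The averaged log2 of SUV39H1 became 0.067 with no low-read filter, 0.054 with 2 added, 0.18 with no replicate block and 0.30 with the additive block; that of the SETDB1 start became 0.15 with no filter and 0.036 with 2 added; that of the internal EHMT2 window became -0.44 under the deposited constants and -0.14 with the additive block. For the change, the deposited constants gave -0.56 at the SETDB1 start, -0.53 at the downstream EHMT1 window, -1.08 at SUV39H1 and -0.76 at the CAB39L window. With 2 added it was 0.058 at the EHMT2 start and 0.059 at the downstream SETDB2 window. Without precision weights it was -0.33 at SUV39H1. Leaving out 1 library, the averaged ranges were -0.55 to 0.32 (SUV39H1), -0.32 to 0.26 (SETDB1 start), -1.34 to 0.032 (SETDB1 downstream) and -0.10 to 1.39 (EHMT2 internal). That of the downstream SETDB2 window, which kept its sign, was -1.90 to -0.79. Ranges of the change were -1.11 to 0.49 (SUV39H1), -2.59 to 0.71 (EHMT2 divergent), -2.73 to 2.15 (EHMT2 start) and -1.03 to 0.82 (SETDB2 downstream). They were -0.010 to 0.81 (SETDB1 start), -3.54 to -1.21 (SETDB1 downstream, without a change of sign) and -0.40 to 0.74 (CAB39L). The deposited constants lowered the change of every member window, not only of those that changed sign. The cause of these shifts was not tested. The divergent EHMT2 window gave no value without the non-migrated input of set 2, where it failed the filter.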
